A study of Mus musculus with 6 samples.

Results

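The Dlx genes encode homeodomain transcription factors, the mouse relatives of the fly gene Distal-less. The 9 genes described here are the 6 protein-coding paralogues Dlx1 to Dlx6 and 3 antisense transcripts, Dlx1as, Dlx6os1 and Dlx6os2. They were taken by symbol from a table of 55416 genes, and each symbol matched 1 row. RNA was sequenced from dissected ganglionic eminences at E13.5 (mouse embryonic age in days), in 3 libraries from Dlx1/Dlx2 double knockouts and 3 from wildtype littermates. The ganglionic eminences are the ventral forebrain swellings that give rise to GABAergic interneurons and striatal projection neurons. The labels name no allele, strain or deleted exons, so reads of Dlx1 and Dlx2 in the double knockout cannot be placed inside or outside the deleted part. They do not say whether each library came from 1 embryo or from a pool, and p-values measure the spread between these libraries.

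Dlx genes lie in the genome as pairs whose members point towards each other, and enhancers between the genes of a pair are shared. In the ventral forebrain, Dlx2 and Dlx1 come on first, in dividing progenitors and cells leaving the cycle, and Dlx5 and Dlx6 follow in postmitotic cells. DLX1 and DLX2 proteins are known to bind the Dlx5/Dlx6 intergenic enhancer, from which the long noncoding RNA Dlx6os1, also called Evf2, is transcribed. Dlx3 and Dlx4 are known mainly from surface ectoderm, placenta and the jaw arches.

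In the GENCODE M21 annotation, Dlx1 and Dlx2 lie on chromosome 2 with 9.43 kb between them, Dlx3 and Dlx4 on chromosome 11 with 15.2 kb, and Dlx6 and Dlx5 on chromosome 6 with 9.24 kb. That annotation is of build GRCm38, while the counts were made on GRCm39, so it was used for layout, length and overlap only. Dlx1as shares 335 bases with Dlx1 exons on the opposite strand, which is 20.6% of its own exon length. Dlx6os2 lies inside the Dlx6 gene on the opposite strand and shares 104 bases of exon with it, 7.68% of its length. Dlx6os1 runs past Dlx6 but shares 0 exon bases with it. Its gene body also overlaps that of Dlx6os2, on the same strand, with 0 exon bases shared. Exons of Dlx6os1 overlap 2 gene models on the opposite strand, Gm27905 and Gm27699, and a second model of its own symbol. None of these models has a row in the counts. The libraries were stranded, but no source used here states whether counting used strand. How reads in shared bases were assigned, or whether they were counted, is therefore not known.

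RefSeq windows on GRCm38.p6, from 250 bases before a start site to 50 after it, were found for 4 of the 9 genes. The 2 windows of Dlx6os1 are shown because this transcript fell most among the 7 tested genes other than Dlx2 and because its windows hold TAATTA, a core sequence that homeodomain proteins bind. TAATTA is in capitals and reads the same on both strands.
Dlx6os1 upstream start, chr6:6869484-6869783, minus strand: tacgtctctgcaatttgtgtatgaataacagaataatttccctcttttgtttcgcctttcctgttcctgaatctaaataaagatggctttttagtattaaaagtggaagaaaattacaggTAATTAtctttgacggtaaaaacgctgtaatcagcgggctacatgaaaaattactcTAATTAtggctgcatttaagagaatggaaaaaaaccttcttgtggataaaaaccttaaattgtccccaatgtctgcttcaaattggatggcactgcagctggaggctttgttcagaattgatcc
Dlx6os1 inner start, chr6:6861634-6861933, minus strand: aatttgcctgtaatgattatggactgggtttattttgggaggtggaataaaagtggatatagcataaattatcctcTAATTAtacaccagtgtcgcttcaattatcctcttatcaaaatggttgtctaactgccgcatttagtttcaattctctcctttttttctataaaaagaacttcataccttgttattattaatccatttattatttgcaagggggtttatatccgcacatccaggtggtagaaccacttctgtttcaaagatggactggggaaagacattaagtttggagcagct
The first window holds 2 copies of TAATTA and the second holds 1, at a GC content of 35.7% and 35.3%. At least 1 copy occurred in 5.29% of 32851 windows of the same length, and in 15.4% of the 1509 windows with a similar GC content. The windows of Dlx1, Dlx2 and Dlx6os2 hold 0 copies. The Dlx6os2 window is shown for its position, with the 171 bases opposite the Dlx6 coding sequence in capitals.
Dlx6os2 start, chr6:6865101-6865400, minus strand: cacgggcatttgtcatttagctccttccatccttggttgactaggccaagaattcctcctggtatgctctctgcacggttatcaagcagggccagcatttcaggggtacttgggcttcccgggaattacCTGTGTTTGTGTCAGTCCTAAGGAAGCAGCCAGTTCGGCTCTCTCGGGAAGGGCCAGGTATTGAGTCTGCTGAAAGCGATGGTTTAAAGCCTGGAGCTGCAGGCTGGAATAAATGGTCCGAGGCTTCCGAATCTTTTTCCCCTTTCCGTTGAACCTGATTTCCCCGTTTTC
The start of Dlx6os2 thus lies opposite a coding exon of Dlx6. These matches describe letters in the windows, and no binding was measured here.

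Total counts ranged from 56618090 to 70114173 per library, so 3 reads correspond to 0.0428 to 0.053 CPM, the read count scaled to library size. CPM below also carry edgeR's TMM scaling (trimmed mean of M values). Log2 fold changes compare the double knockout with the wild type, and their standard errors (SE) and adjusted p come from edgeR's quasi-likelihood fit over all tested genes. Without TMM scaling, Xist was at 1234 to 1552 CPM in wildtype replicates 2 and 3 and double knockout replicate 1. It was below 1 CPM in the other 3 libraries, so both classes occurred in both genotypes. All 9 ganglionic eminence markers were detected. They summed to 1617 to 1682 CPM in the wild type and 1220 to 1436 CPM in the double knockout, without overlap. Of the 9, 6 were called, Gad1, Gad2, Lhx6 and Ebf1 as lower and Gsx2 and Nkx2-1 as higher. Markers of the cortical excitatory lineage summed to 823 to 843 and 629 to 654 CPM, without overlap, and 1 of 6, Neurod2, was called, as lower. Markers of craniofacial mesenchyme and bone summed to 68.0 to 82.5 and 97.5 to 117.4 CPM, also without overlap, and 1 of the 6 tested, Col2a1, was called, as higher, a call that was lost without wildtype replicate 2 or 3 or double knockout replicate 1 or 2. Surface ectoderm markers summed to 1.08 to 1.14 CPM in the wild type and 1.48 to 1.59 CPM in the double knockout, without overlap, and 0 of the 2 tested were called. Choroid plexus markers ranged from 0.67 to 30.5 CPM in the wild type and from 0.735 to 1.34 CPM in the double knockout. Blood markers overlapped, at 73.7 to 90.1 and 70.5 to 97.5 CPM. The part of these cell types in the results below was not tested. In bulk tissue, fewer cells that express a gene and less RNA per cell cannot be told apart.

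Of the 9 genes, 7 passed the filter on low counts, and all 7 were lower in the double knockout. Dlx1 and Dlx2 are the targeted genes, so their lower level was set by the design, and Dlx1as lies at the targeted locus. The 4 tested genes of the untargeted Dlx5/Dlx6 cluster were all called as lower. Among all 23628 tested genes, 2.68% passed the threshold of 0.05 on the adjusted p and 1.34% passed it as lower. The 3 libraries of each group did not overlap for any of these 7 genes, while 10.2% of all tested genes were lower without overlap and 19.5% did not overlap in either direction. Ordered by log2 fold change from the lowest, Dlx6os1, Dlx6os2, Dlx5 and Dlx6 held places 4, 6, 11 and 24. The targeted Dlx2 and Dlx1 held places 2 and 25, and Dlx1as held place 35. The filter left out Dlx3 and Dlx4, so the counts of 7 do not cover the whole family. Level and spread of each gene are shown in the plot of levels per kilobase.

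**Figure D1:**
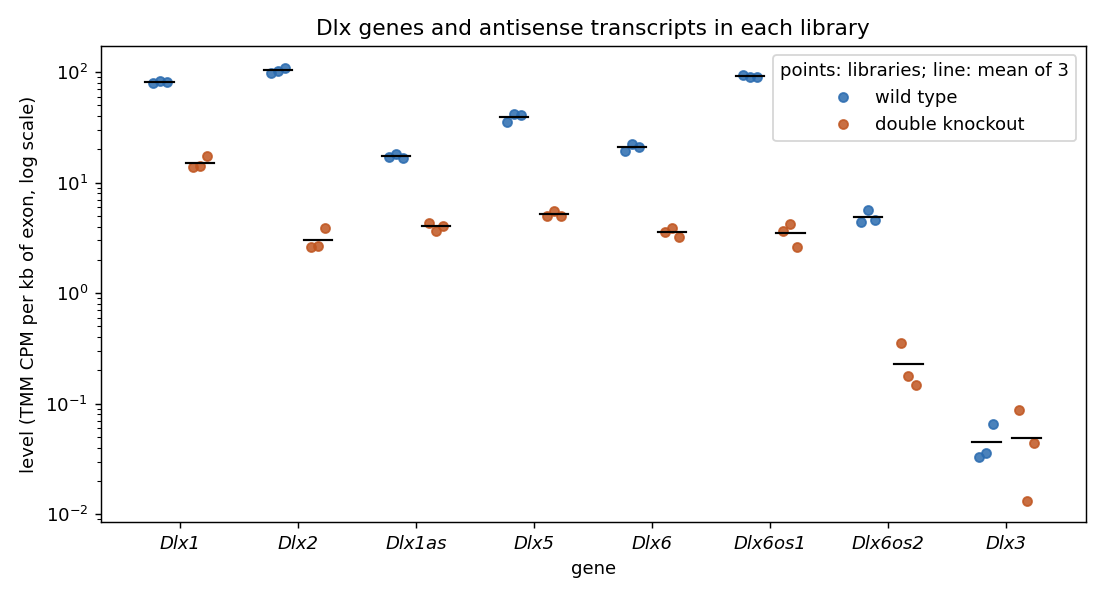
Level of each Dlx gene in each library, as TMM-normalised CPM per kilobase of exon on a log scale (y) by gene (x), with points for libraries and lines for the mean of 3. The double knockout libraries lie below the wildtype libraries for 7 genes, Dlx3 overlaps, and Dlx4, with 0 reads, cannot be drawn on this axis.

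Dlx1 and Dlx2 are the targeted genes, so their values check the labels. Dlx2 had 16510, 18768 and 20100 reads in the wildtype libraries, in replicate order, and 487, 436 and 762 in those of the double knockout. Its level per library was 281.8, 292.0 and 313.3 CPM against 7.50, 7.56 and 10.985 CPM, with double knockout replicate 3 the highest of its group. On the log2 scale this was a change of -5.09 (SE 0.15, adjusted p = 2.59e-06). Dlx1 was at 434.0, 445.7 and 436.9 CPM in the wild type and 74.9, 75.8 and 94.0 CPM in the double knockout, again highest in replicate 3. This gave a log2 fold change of -2.43 (SE 0.0905, adjusted p = 5.50e-06). No library went against its label. The spread of Dlx1 among the libraries was 1.39% of the mean in the wild type and 13.2% in the double knockout, and that of Dlx2 was 5.45% and 23.0%.

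The targeted genes did not fall by the same factor. In each wildtype library there were 64.9, 65.5 and 71.7 reads of Dlx2 for every 100 reads of Dlx1 (the read ratio as a percent), and in the double knockout 10.03, 9.98 and 11.7. The log2 ratio of Dlx2 to Dlx1 was lower by a difference of -2.68 (SE 0.0878) in the double knockout, a 6.39-fold shift, in 3 of 3 libraries. The exact permutation test gave p = 0.1, two-sided, the smallest that 3 libraries against 3 allow, and 0.1 after adjustment over the 5 ratios compared.

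Dlx1as is the transcript on the strand opposite Dlx1. It lies at the targeted locus, and whether the deleted part includes bases of Dlx1as is not known from the labels. It was at 27.9, 29.7 and 27.1 CPM in the wild type and 7.025, 5.95 and 6.66 CPM in the double knockout, so the groups did not overlap. The log2 fold change was -2.11 (SE 0.0895, adjusted p = 1.01e-05). Set against Dlx1, there were 6.43, 6.66 and 6.21 reads of Dlx1as for every 100 of Dlx1 in the wild type and 9.39, 7.85 and 7.09 in the double knockout. The log2 ratio was 0.32 higher (SE 0.122) in the double knockout, in 3 of 3 libraries, with an exact permutation p of 0.1 and 0.1 adjusted. Double knockout replicate 1 had the highest ratio, and without it the difference was 0.21. Within the Xist classes it was 0.55 among the high libraries and 0.21 among the low ones.

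Dlx5 and Dlx6 were not targeted, and both fell. Dlx5, which acts in interneuron migration and maturation, was at 79.8, 95.3 and 92.7 CPM in the wild type and 11.3, 12.5 and 11.3 CPM in the double knockout. Wildtype replicate 1 was the lowest of its group, and the groups did not overlap. On the log2 scale this was a change of -2.93 (SE 0.0854, adjusted p = 2.59e-06). Dlx6, its partner, was at 46.3, 52.8 and 49.9 CPM against 8.49, 9.30 and 7.61 CPM. This gave a log2 fold change of -2.55 (SE 0.0926, adjusted p = 5.50e-06). With the reads of Dlx6, Dlx6os1 and Dlx6os2 added into 1 count, the log2 fold change was -4.30, since Dlx6os1 supplied most of those reads.

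Dlx6 kept slightly more of its level than Dlx5. There were 58.0, 55.4 and 53.8 reads of Dlx6 for every 100 of Dlx5 in the wild type and 75.3, 74.2 and 67.1 in the double knockout. The log2 ratio of Dlx6 to Dlx5 was 0.37 higher (SE 0.061) in the double knockout, in 3 of 3 libraries. The exact permutation p was 0.1, and 0.1 adjusted over the 5 ratios.

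The antisense transcripts of the Dlx5/Dlx6 locus fell further than the coding genes there. The gene bodies of Dlx6os1 and Dlx6os2 overlap on the same strand. Whether reads counted for Dlx6os2 come from introns of Dlx6os1 was not tested. Dlx6os1 was at 485.2, 463.8 and 469.9 CPM in the wild type, with 28433 to 30143 reads, and at 18.8, 21.7 and 13.6 CPM in the double knockout, with 940 to 1253 reads. Its level was 26.2-fold lower, against 7.62-fold for Dlx5 and 5.86-fold for Dlx6. The log2 fold change was -4.72 (SE 0.161, adjusted p = 4.39e-06). The wild type held 10.5, 8.79 and 9.42 reads of Dlx6os1 per read of Dlx6 and the double knockout 2.21, 2.34 and 1.78. The log2 ratio of Dlx6os1 to Dlx6 had a difference of -2.19 (SE 0.141), a 4.55-fold shift, lower in 3 of 3 libraries, with an exact permutation p of 0.1 and 0.1 adjusted.

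Dlx6os2 was the least abundant of the called genes. It had 353, 492 and 396 reads in the wild type, or 6.02, 7.65 and 6.17 CPM. In the double knockout it had 31, 14 and 14 reads, or 0.478, 0.243 and 0.202 CPM, and the exact Poisson intervals of these counts (95%, counting error only) were 21.1 to 44.0 for the first and 7.65 to 23.5 for each of the others. On the log2 scale this was a change of -4.42 (SE 0.278, adjusted p = 9.50e-05). There were 13.02, 14.5 and 12.4 reads of Dlx6os2 for every 100 of Dlx6 in the wild type and 5.71, 2.70 and 2.74 in the double knockout. The log2 ratio had a difference of -1.93 (SE 0.363), lower in 3 of 3 libraries, with an exact permutation p of 0.1 and 0.1 adjusted. It was -1.23 among the high Xist libraries, where the double knockout is replicate 1 alone, and -2.26 among the low ones.

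**Figure D2:**
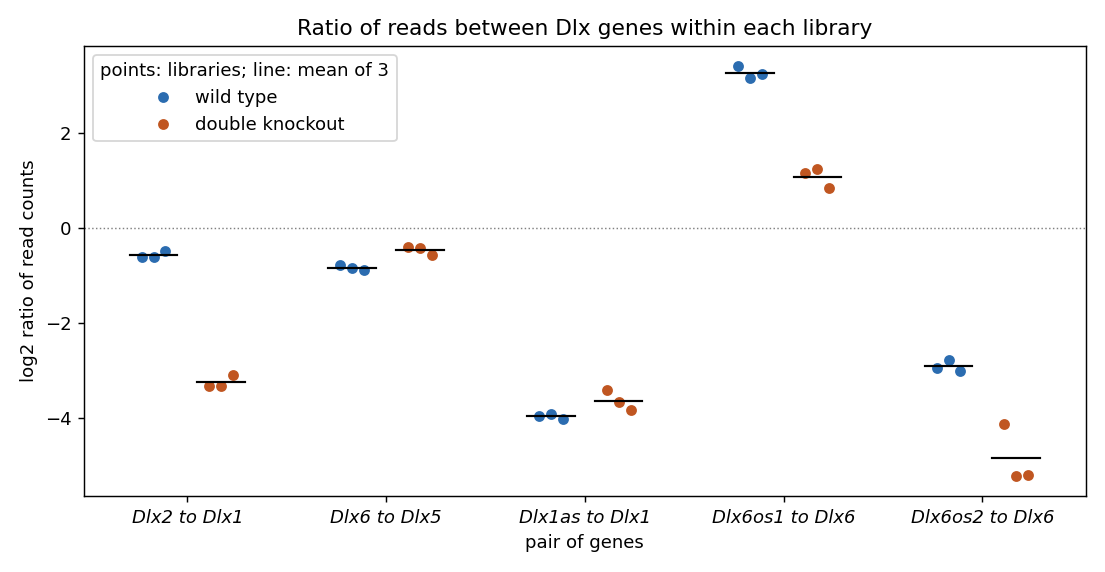
The log2 ratio of read counts between 2 Dlx genes within a library (y) for 5 pairs (x), with points for libraries and lines for the mean of 3. Dlx2 to Dlx1, Dlx6os1 to Dlx6 and Dlx6os2 to Dlx6 differ by -2.68, -2.19 and -1.93 between double knockout and wild type, and the other pairs lie 0.37 and 0.32 higher.

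Gm44094, an unnamed gene model on the strand of Dlx6os1 and inside its gene body, sharing 0 exon bases with it, was singled out after its values were seen. It had 442, 707 and 714 reads in the wild type and 31, 24 and 12 in the double knockout. This gave a log2 fold change of -4.81 (SE 0.31, adjusted p = 1.14e-04), so it lay between Dlx6os1 and Dlx2. Whether reads counted for Gm44094 come from a separate transcript or from introns of Dlx6os1 was not tested. At the Dlx3/Dlx4 locus, the antisense model Dlx4os, which overlaps Dlx4, had 0 reads in all 6 libraries.

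Dlx3 and Dlx4 were at or near the limit of detection. Dlx3 had 5, 6 and 11 reads in the wild type and 15, 2 and 8 in the double knockout, 47 reads in all. The groups overlapped, and double knockout replicates 1 and 2 were the highest and the lowest of the 6 libraries. Without the filter on low counts, its log2 fold change was 0.14 (SE 0.687, adjusted p = 0.966), so no difference was detectable at this depth. Dlx4 had 0 reads in every library, which at 3 reads as the limit for a count of 0 allows up to 0.0428 to 0.053 CPM per library. Of the 6 surface ectoderm markers, the tissue in which Dlx3 is known, the highest was Epcam, at 0.572 ± 0.0168 and 0.980 ± 0.156 CPM (SD, n = 3), without overlap (adjusted p = 0.135). Grhl3 was at 0.311 ± 0.0678 and 0.328 ± 0.019 CPM, Trp63 at 0.123 ± 0.0139 and 0.0911 ± 0.0762 CPM, and the keratin genes Krt5, Krt14 and Krt15 were each below 0.06 CPM on average in both groups.

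The level that remained in the double knockout set the genes apart into 2 ranges. As a percent of the wildtype mean it was 2.94 ± 0.674 (SD, n = 3) for Dlx2, 3.81 ± 0.877 for Dlx6os1 and 4.65 ± 2.25 for Dlx6os2. It was 13.1 ± 0.795 for Dlx5, 17.1 ± 1.70 for Dlx6, 18.6 ± 2.46 for Dlx1 and 23.2 ± 1.94 for Dlx1as. The highest library of the first 3 genes, Dlx6os2 in replicate 1 at 7.22%, was below the lowest of the other 4, Dlx5 in replicate 1 at 12.6%. This division is a description made after the values were seen and was not tested.

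**Figure D3:**
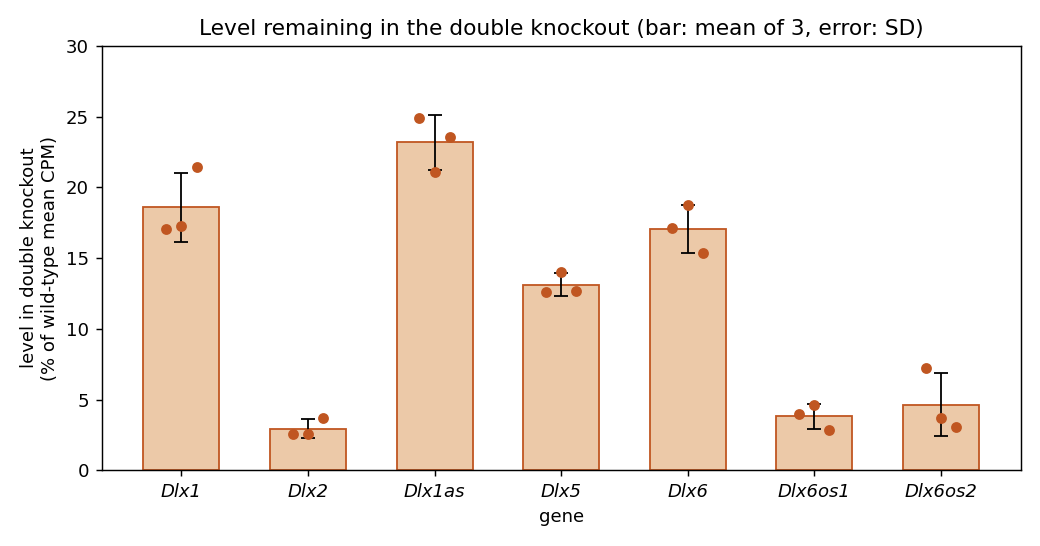
Level in the double knockout as a percent of the wildtype mean CPM (y) for the 7 genes that passed the filter (x). Bars are means of 3 libraries, error bars SD and points libraries, and Dlx2, Dlx6os1 and Dlx6os2 lie between 2.54% and 7.22% while the other 4 lie between 12.6% and 24.9%.

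Levels of different genes were compared per kilobase of exon, in CPM per kb. For genes of the targeted locus, the length used in the double knockout includes any deleted bases, which the labels do not give. In the wild type the order was Dlx2 at 103.6 ± 5.64 (SD, n = 3), Dlx6os1 at 91.4 ± 2.13, Dlx1 at 81.3 ± 1.13, Dlx5 at 39.5 ± 3.65, Dlx6 at 20.9 ± 1.36, Dlx1as at 17.3 ± 0.815 and Dlx6os2 at 4.89 ± 0.666, followed by Dlx3 at 0.0448 ± 0.0183. The libraries of neighbours in this order did not overlap. The noncoding Dlx6os1 thus lay above its coding neighbours Dlx5 and Dlx6. In the double knockout the order was Dlx1 at 15.1 ± 1.999, Dlx5 at 5.18 ± 0.314, Dlx1as at 4.02 ± 0.336, Dlx6 at 3.56 ± 0.355, Dlx6os1 at 3.49 ± 0.801 and Dlx2 at 3.04 ± 0.698. From Dlx1as to Dlx2 each gene overlapped the next, so the order among these 4 does not hold beyond their spread. Dlx6os2 followed at 0.227 ± 0.110 and Dlx3 at 0.0487 ± 0.0379. Measured by the longest transcript instead of all annotated exon bases, 4 places changed in each order. In the wild type, Dlx1 at 106.8 CPM per kb then lay above Dlx6os1 at 102.6, and Dlx1as above Dlx6. In the double knockout, Dlx1as then lay above Dlx5, and Dlx6os1 above Dlx6.

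The coding Dlx genes together fell from 245.3 ± 10.004 to 27.0 ± 2.29 CPM per kb, so 11.0% ± 0.935 (SD, n = 3) of the wildtype mean remained. In the wild type Dlx2 made up 42.2% ± 1.19 of this sum, Dlx1 33.2% ± 1.17, Dlx5 16.1% ± 0.914 and Dlx6 8.52% ± 0.342. In the double knockout Dlx1 made up 56.0% ± 2.73, Dlx5 19.3% ± 2.14, Dlx6 13.3% ± 2.19 and Dlx2 11.2% ± 1.59. Dlx5 and Dlx6 together had a share of 24.6% ± 1.19 and 32.7% ± 4.32. The group ranges of each of the 4 shares did not overlap. For Dlx5 the gap was narrow, with a wildtype maximum of 16.89% and a double knockout minimum of 16.97%. Dlx1 and Dlx2 are the targeted genes, so the lower sum and the higher shares of Dlx5 and Dlx6 follow in part from the targeting. Whether the remaining Dlx1 reads come from transcripts that can make protein was not tested.

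**Figure D4:**
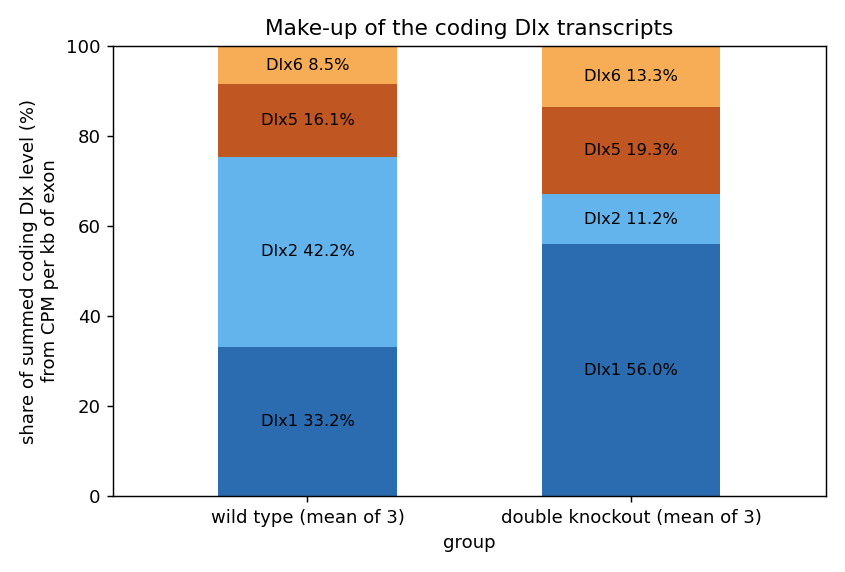
Share of each coding Dlx gene in the summed coding Dlx level per kilobase (y, percent) in the wild type and the double knockout (x), as means of 3 libraries. Dlx2 has the largest share in the wild type, at 42.2%, and Dlx1 in the double knockout, at 56.0%, while Dlx3 and Dlx4 are too low to be drawn.

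The neighbours of the 3 pairs, the nearest 3 other protein-coding genes on each side, were compared by the same test. Of these 18 genes, 3 were called, beside 2.68% of all tested genes, and their median log2 fold change was -0.03, against -0.0016 over all tested genes. The genes nearest to the targeted pair on either side were both higher. Metap1d, a mitochondrial methionine aminopeptidase gene 2.92 kb from Dlx1, rose from 18.6 ± 1.21 to 29.7 ± 1.41 CPM (SD, n = 3), with a log2 difference of 0.68 (SE 0.0761, adjusted p = 0.00234). The gene body of Dlx1as overlaps that of Metap1d on the opposite strand, with 0 exon bases shared. Itga6, an integrin subunit gene 198.9 kb beyond Dlx2, rose from 55.7 ± 5.20 to 84.1 ± 3.19 CPM, with a log2 difference of 0.59 (SE 0.0712, adjusted p = 0.00328). Tac1, the tachykinin precursor gene of striatal neurons 672.8 kb beyond Dlx5, fell from 10.5 ± 2.48 to 2.995 ± 0.643 CPM, with a log2 difference of -1.81 (SE 0.206, adjusted p = 0.00251). The genes next to Dlx5 and Dlx6, Sdhaf3 and Sem1, differed by 0.05 (SE 0.116) and -0.05 (SE 0.105) on the log2 scale, which did not pass the test. None of the 6 neighbours of Dlx3 and Dlx4 passed the test, with adjusted p from 0.107 to 0.997.

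**Figure D5:**
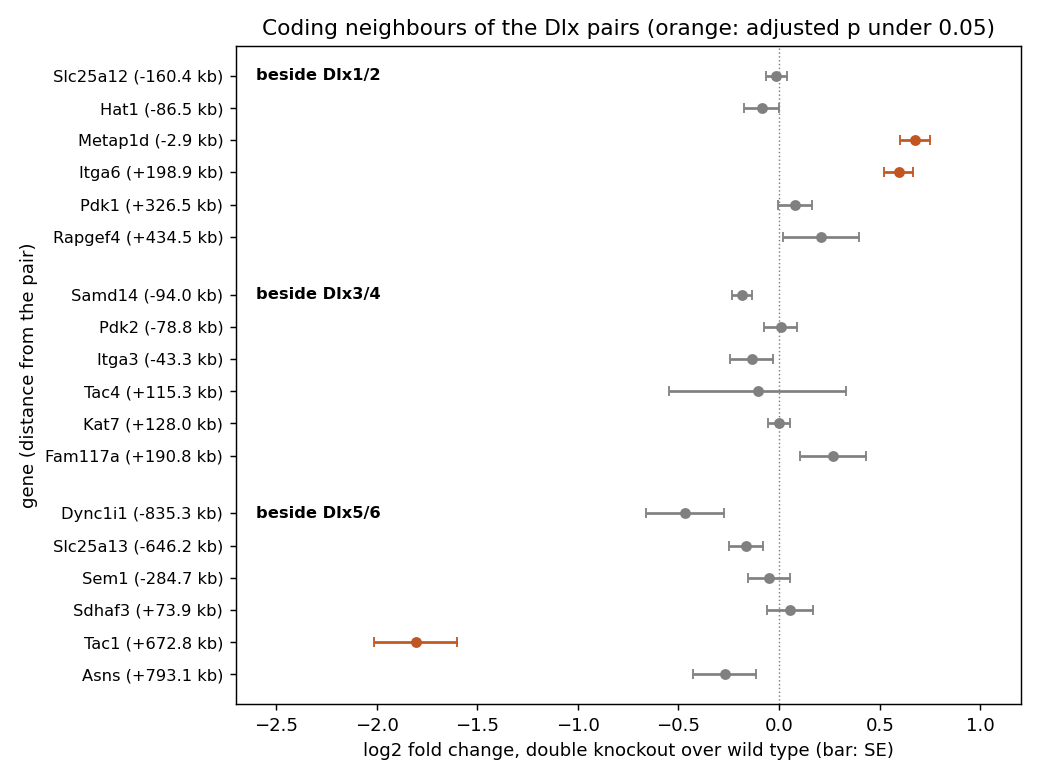
Log2 fold change of the coding neighbours of each Dlx pair (x, bars are SE), listed by their signed distance from the pair in kilobases (y). Orange marks the genes that passed the threshold. Metap1d and Itga6 beside Dlx1 and Dlx2 lie at 0.68 and 0.59, Tac1 at -1.81, and the other 15 genes did not pass the threshold.

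A list of 30 genes linked to the Dlx factors was described, without a test of whether each acts with them in this tissue. The 30 genes were chosen with earlier results of these data known. Of these, 15 were lower, 6 were higher and 9 did not pass the test, beside 2.68% called among all tested genes, with a median log2 fold change of -0.47 against -0.0016 over all tested genes. Upstream of Dlx, the progenitor factors Gsx1 and Gsx2 rose, with log2 fold changes of 2.95 (SE 0.138) and 0.64 (SE 0.111). Among homeodomain and zinc finger factors of the GABAergic lineage, Sp8, Lhx8 and Lhx6 fell with log2 fold changes of -1.72, -1.22 and -0.83, whereas Sp9 was at 89.8 ± 2.65 and 79.0 ± 8.92 CPM, and missed the threshold (adjusted p = 0.346). Genes of the GABA phenotype fell with them: Slc32a1, Gad1 and Gad2 fell by 2.85, 1.47 and 1.38 on the log2 scale. The retinoic acid genes Aldh1a3 and Rarb had -3.67 and -1.73, and the transcription factor genes Zfp503, Ebf1, Zeb2, Meis1, Meis2 and Foxp2 had -1.66, -1.55, -0.55, -0.49, -0.45 and -0.25. Besides Gsx1 and Gsx2, Otp, Olig2, Isl1 and Nkx2-1 rose, by 3.65, 0.80, 0.62 and 0.59 on the log2 scale. Those that did not pass included, besides Sp9, Six3, Pbx3, Etv1, Gbx1, Nrp2 and Ikzf1, with log2 fold changes from -0.71 to 0.15. Of the 15 lower genes 11, and of the 6 higher genes 3, stayed called in every alternative tried. The calls of Gsx2 and Olig2 were lost without wildtype replicate 1 or 2, where the adjusted p reached 0.0969 and 0.0523, and that of Meis2 without double knockout replicate 2 (adjusted p = 0.0502). Those of Nkx2-1, Meis1, Lhx6 and Foxp2 were lost without each of several libraries, double knockout replicate 1 and all 3 wildtype ones among them. Their adjusted p reached 0.147, 0.12, 0.118 and 0.153. Total count scaling also removed the calls of Meis1 and Foxp2, and limma-voom that of Foxp2. Foxp2 stayed called in 6 of 15 alternatives. Conversely, Sp9 and Gbx1 passed without double knockout replicate 3 (adjusted p = 0.0262 and 0.00725) and Etv1 without double knockout replicate 1 (adjusted p = 0.0424).

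Likeness to Dlx2 and Dlx5 was measured as the root mean square distance between log2 CPM profiles over the 6 libraries, each centred on its mean, among 16480 other genes that averaged 1 CPM or more. Closest to Dlx5 was Slc32a1, the vesicular GABA transporter gene, at a distance of 0.092, followed by Sowaha at 0.221, Cntnap3 at 0.251, Neb at 0.251 and Aldh1a3 at 0.286. Slc32a1 kept 13.8% ± 2.11 of its wildtype mean, beside 13.1% ± 0.795 for Dlx5. Dlx2 had fewer close genes: Nxph2 lay at 0.472, Gm44094 at 0.615, Aldh1a3 at 0.879, Cntnap3 at 1.07 and Slc32a1 at 1.16. Within a distance of 0.5 there were 11 genes for Dlx5 and 1 for Dlx2, Nxph2. In the double knockout Nxph2 was at 0.0173 to 0.0577 CPM, around the limit set by 3 reads. Its log2 fold change was -6.22, beside -5.09 for Dlx2. The distance of Nxph2 depends on how CPM near 0 entered the log, and other choices were not tested. Its place as closest to Dlx2 and the count of 1 rest on that choice. These distances describe 6 libraries in 2 groups and mostly reflect the size of the difference between the groups.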

How the data were processed

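Total RNA was sequenced after ribosomal RNA depletion with a stranded kit, per the labels' protocols, in 6 libraries. The authors deposited a table of raw read counts per gene, made with featureCounts on GRCm39, per the submitters' processing notes. The aligner, annotation release and strand and multi-mapping settings are not given in the sources used here. All columns of values were used, and 1492 of 55416 genes had no symbol. Of the table's identifiers, 94.0% occur in GENCODE M21.

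Sample titles gave groups and replicate numbers. The filter on low counts was filterByExpr (minimum count 10, minimum total 15), which left 23628 genes. These were scaled by TMM and tested with edgeR 4.0.16 in R 4.3.3, by the quasi-likelihood test with prior count 0.125 and Benjamini-Hochberg adjustment over all tested genes. SE is the log2 fold change divided by the square root of F. Ratios between genes used counts plus 0.5 reads and a two-sided exact permutation test. The planned ratio of Dlx3 to Dlx4 was not computed because Dlx4 had 0 reads. The fit was tested on simulated data.

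The genes and lists were chosen with earlier results of these data known. Named genes were the 9 genes, the called genes of the list of 30, the nearest 3 coding neighbours per side, and the 5 genes nearest in profile to Dlx2 and to Dlx5. Some genes of the list of 30 are counted but not reported here by name. Other genes of these lists, the marker genes, and Gm44094 and Dlx4os, were named after their values were seen. Alternatives were DESeq2 1.42.0, limma-voom 3.58.1, other scalings, filters, lengths and pseudocounts, summed sense and antisense counts, a replicate block and leaving out each library. An Xist covariate was added after seeing the data. No 2 libraries held identical counts.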

Additional observations from a re-analysis of the deposited data

How the results depend on the processing

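The 7 called Dlx genes kept their direction and stayed called in every alternative in which they were tested. Their log2 fold changes over these alternatives ranged from -2.54 to -2.37 for Dlx1, -5.29 to -4.99 for Dlx2 and -2.16 to -2.04 for Dlx1as. They ranged from -3.00 to -2.88 for Dlx5 and, where Dlx6 was counted on its own, from -2.62 to -2.48 for Dlx6. The ranges were -4.87 to -4.54 for Dlx6os1 and -4.89 to -4.17 for Dlx6os2. The highest adjusted p was 8.85e-04. Summing sense and antisense counts left 4 Dlx genes, all 4 called. The count of Dlx6 summed with its antisense transcripts had -4.30. The number of genes called among all tested genes was 1168 with DESeq2, 357 with the Xist class as a covariate, 690 with the replicate block and between 309 (without wildtype replicate 1) and 749 (without double knockout replicate 3) when 1 library was left out; it was 325, 403, 380 and 402 without wildtype replicates 2 and 3 and double knockout replicates 1 and 2. The cause was not tested. Total count scaling called 390 genes higher and 256 lower, in place of 317 each.

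In the fit with a replicate block, the log2 fold change was -2.43 for Dlx1, -5.11 for Dlx2, -2.11 for Dlx1as, -2.93 for Dlx5, -2.55 for Dlx6, -4.74 for Dlx6os1 and -4.43 for Dlx6os2, and no call of a Dlx gene changed. Same-numbered libraries had correlations of -0.0694, -0.0022 and 0.0018 in their deviations from the group means over 23628 genes, so the numbers were not taken as pairs.

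The ratios kept their sign throughout: the difference ranged from -2.77 to -2.59 for Dlx2 to Dlx1, 0.28 to 0.46 for Dlx6 to Dlx5, 0.21 to 0.55 for Dlx1as to Dlx1, -2.36 to -2.04 for Dlx6os1 to Dlx6 and -2.29 to -1.23 for Dlx6os2 to Dlx6. With the longest transcript as length, 4 places changed in each order of levels, and the wildtype shares of Dlx2, Dlx5 and Dlx6 were 38.4%, 20.1% and 7.19%, with 23.3% for Dlx5 and 10.9% for Dlx6 in the double knockout. Leaving out a library changed 0 to 2 places of the double knockout order and 0 of the wildtype order. Of the list of 30 genes linked to Dlx, 15 to 24 were called, with 3 higher in place of 6 without wildtype replicate 1 or 2. With the Xist covariate, the calls of Gsx2, Nkx2-1, Lhx6, Meis1 and Foxp2 were lost. Among neighbours, 3 of 18 were called in every alternative. Among marker lists, DESeq2 called 5 and the unfiltered test 3 cortical genes; the unfiltered test called 1 choroid plexus gene; and the Xist covariate left 3 ganglionic eminence genes and 0 craniofacial ones. Without single libraries these lists had 3 to 7 ganglionic eminence, 1 to 2 cortical and 0 to 1 craniofacial calls. Depth limits the values of Dlx3, Dlx4 and, in the double knockout, Dlx6os2.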
